A study of Mus musculus with 2 samples.

Results

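The mouse major histocompatibility complex, called H2, was examined as 250 fixed bins of 10 kb on chromosome 17 of mm9, from 33.9 to 36.4 Mb, out of 264195 such bins on all chromosomes. The bins were set by position alone, along the stretch named as the class I K end, class II, class III and the class I D and Q parts, with 100 bins in each 1 Mb flank beside it. The groups were 1 hMeDIP library, in which an antibody against 5-hydroxymethylcytosine (5hmC) from Active Motif pulled down DNA fragments carrying the mark, and 1 input library made without antibody. Both came from genomic DNA of kidneys of male C57BL/6 mice, an inbred laboratory strain, aged 6 weeks. They held 11424027 hMeDIP and 8316507 input fragments. Whole organs were used and the labels do not give the number of animals. With 1 library per group no replicate error exists, and every 95% interval below is exact (Clopper-Pearson) or, for a ratio of ratios, from the logarithms of the 4 counts. These intervals cover counting error only and compare these libraries. Molecules were not tagged and repeated reads may stem from 1 molecule. Each listed fragment was counted once whatever its number of reads, except where weighting by reads is named.

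TET enzymes oxidise 5-methylcytosine to 5hmC, and in differentiated tissues the mark is known mainly from the bodies of transcribed genes and from enhancers. Class I molecules present peptides made inside the cell to CD8 T cells, and class II molecules present peptides taken up from outside to CD4 T cells. The class III part holds complement and cytokine genes in place of antigen-presenting molecules. Kidney DNA pools tubule, vessel, stromal and resident immune cells, so a mark in fewer cells and less mark per cell cannot be told apart.

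For orientation, 60 of 62 listed genes were found on chromosome 17 in RefSeq's GRCm38 table, which is another build and was used for gene order only. The order ran from Tapbp, which helps load peptides onto class I molecules, past the class I gene H2-K1 to Tap1 and Tap2, which carry peptides into the endoplasmic reticulum, and Psmb8 and Psmb9, subunits of the immunoproteasome. The class II chains H2-Ab1 and H2-Aa followed. Next in order were Notch4, a receptor, then the complement genes C4b, Cfb and C2, and the cytokine genes Ltb, Tnf and Lta. H2-D1, the H2-Q genes and then Pou5f1, a pluripotency factor, and Ddr1, a collagen receptor, came last. No mm9 annotation was used here, so no bin below is assigned to a gene, and the label could not be checked against gene positions.

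The complex as a whole carried more hMeDIP signal than its flanks. It held 16601 hMeDIP and 6529 input fragments, which is 0.145% (0.143 to 0.148) of the hMeDIP library and 0.0785% (0.0766 to 0.0804) of the input library. The ratio of these shares was 1.85 (1.80 to 1.91), where 1 is the mean over all fragments of these libraries and not a fixed amount of 5hmC. Both flanks lay below 1 under this scaling. The proximal flank, 32.9 to 33.9 Mb, held 3560 hMeDIP and 2788 input fragments, which gives 0.930 (0.884 to 0.977). The distal flank, 36.4 to 37.4 Mb, held 2490 hMeDIP and 2807 input fragments, which gives 0.646 (0.612 to 0.682). Scaled to the fragments outside peaks instead, the complex stood at 2.44, the proximal flank at 1.23 (1.17 to 1.29), above 1, and the distal flank at 0.853 (0.807 to 0.900).

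The complex was therefore 1.99 (1.88 to 2.11) times the proximal flank and 2.87 (2.70 to 3.05) times the distal flank. Set against chromosome 17 outside the complex and its flanks, which stood at 1.16 (1.16 to 1.17), it was 1.59 (1.54 to 1.64) times as high. Against all autosomes, of which it is a small piece, it was 1.83 (1.77 to 1.88) times as high. Fragments of hMeDIP numbered 6640 per Mb in the complex, 3560 in the proximal flank, 2490 in the distal flank and 4552 on autosomes. Input fragments numbered 2612 per Mb in the complex, 2788 in the proximal flank, 2807 in the distal flank and 3269 on autosomes, so input density was lowest in the complex and hMeDIP density highest there. Base composition, CpG density and mappability can also shape antibody recovery, and their part in these ratios was not tested.

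**Figure D1:**
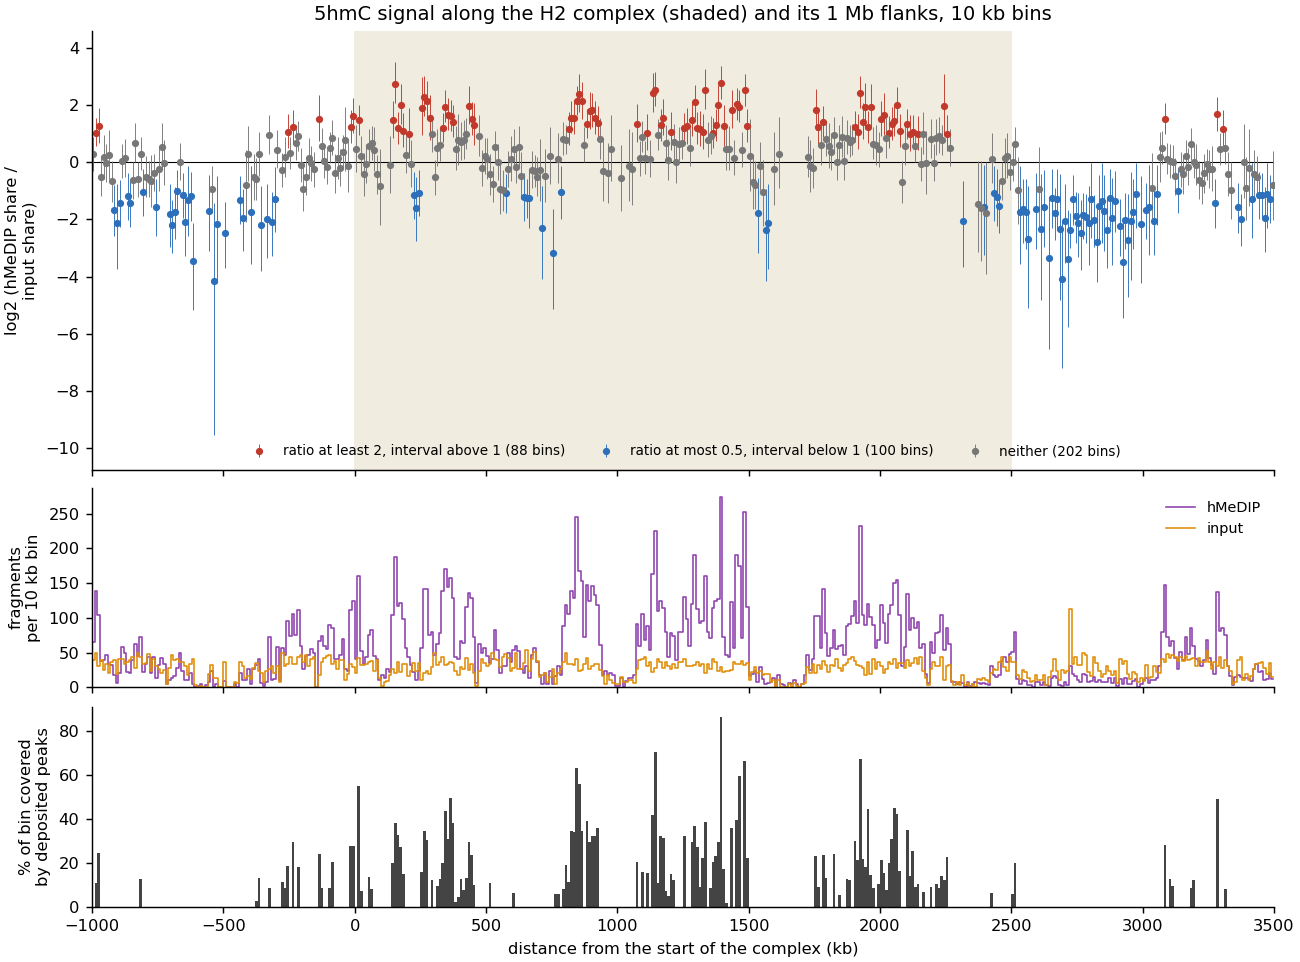
Log2 ratio of hMeDIP to input share with its 95% interval (top), fragments per bin (middle) and percent of each bin covered by deposited peaks (bottom) for the 10 kb bins of the complex (shaded) and both flanks, against distance from the start of the complex in kb. Bins with under 10 input fragments are left out of the top panel. Blocks of red bins alternate with sparse gaps inside the complex, and blue bins lie in some of these gaps, near the distal end and in both flanks.

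A bin was called high at a ratio of 2 or more with an interval above 1, and low at 0.5 or less with an interval below 1, among bins with at least 10 input fragments. In the complex 78 of 214 bins were high (36.4%), against 12.5% of the 225788 autosomal bins tested, and 18 were low (8.41%), against 35.5% of autosomal bins. The proximal flank had 7 high and 27 low bins among 84, and the distal flank had 3 high and 55 low bins among 92. High bins made up 81.25% of the calls in the complex and 26.1% on autosomes. Scaled to the fragments outside peaks, which adds 0.40 to every log2 ratio, these shares were 93.3% (112 high and 8 low bins) in the complex and 46.1% on autosomes. Centred on the median autosomal bin they were 94.6% (122 high and 7 low bins) and 51.9%. The proximal flank had 13 high and 18 low bins by scaling outside peaks, still more low than high. By centring it had 16 high and 14 low bins, so its balance turned under that setting only. The distal flank kept more low than high bins under both, with 5 high and 35 low and with 7 high and 29 low.

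The whole distribution of bins in the complex lay higher. The median log2 ratio was 0.66 in the complex, with quartiles of -0.08 and 1.27, against -0.31 in the proximal flank, -1.27 in the distal flank and -0.50 on autosomes. Ratios stood above 1 in 155 of the 214 bins, and the interval held 1 in 82 bins. The matching counts on autosomes are not given here, where the quartiles of the log2 ratio were -1.43 and 0.42. The SD of the log2 ratio was 1.08 in the complex, where counting alone gives 0.37, and 1.26 on autosomes, where it gives 0.41. Bins of the complex thus differed among themselves by more than counting error.

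**Figure D2:**
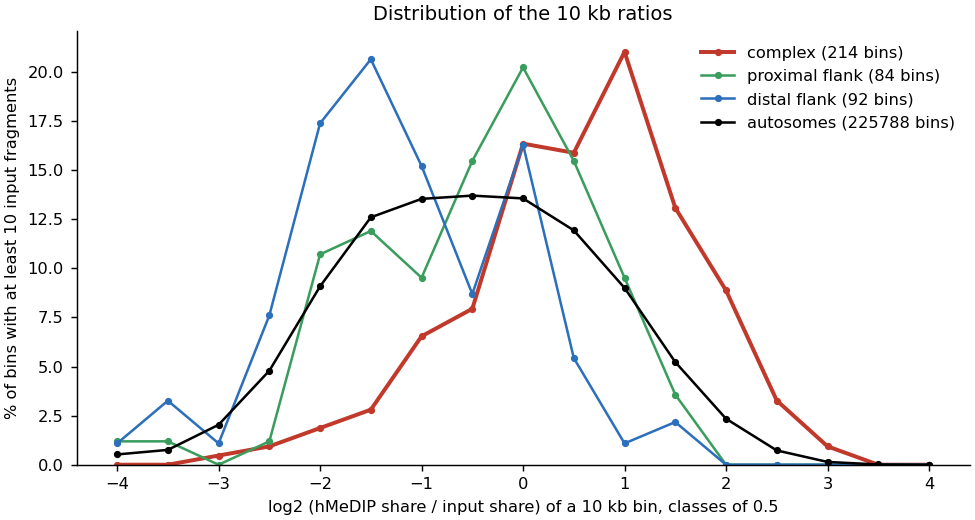
Percent of tested 10 kb bins (vertical axis) in classes of 0.5 of the log2 ratio (horizontal axis) for the complex, the flanks and all autosomes, with bins beyond the axis counted in the end class. The complex is most frequent in the class from 0.75 to 1.25, with 21.0% of its bins, against 9.01% of autosomal bins there, and the distal flank has its maximum among negative values.

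Along the complex the signal was not even. In 5 segments of 500 kb the ratio was 1.98 (1.86 to 2.11) from 33.9 Mb, 1.498 (1.41 to 1.60) from 34.4 Mb, 2.40 (2.26 to 2.55) from 34.9 Mb, 1.73 (1.61 to 1.86) from 35.4 Mb and 1.58 (1.47 to 1.69) from 35.9 Mb. The middle segment was the highest and had 25 high and 0 low bins among 46, while the second was the lowest and had 11 high and 7 low bins among 45. The second segment stood at 0.624 (0.573 to 0.680) of the third. Between the fourth and the fifth segment the ratio of ratios was 1.10 (0.994 to 1.21), an interval that holds 1, and likewise 0.951 (0.866 to 1.04) between the second and the fifth.

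The flanks were uneven too. The 500 kb next to the proximal end, from 33.4 Mb, stood at 1.12 (1.05 to 1.20) and those farther out, from 32.9 Mb, at 0.742 (0.689 to 0.799). On the distal side the order was the opposite, with 0.322 (0.290 to 0.356) next to the complex, from 36.4 Mb, and 0.908 (0.848 to 0.971) farther out, from 36.9 Mb. The last segment of the complex was 4.90 (4.34 to 5.53) times the first segment of the distal flank, while the nearest segment of the proximal flank was 0.565 (0.516 to 0.620) of the first segment of the complex. Across 36.4 Mb the ratio was 0.698 in the last 100 kb of the complex and 0.666 in the first 100 kb of the distal flank. Across 33.9 Mb it was 1.36 in the first 100 kb of the complex and 1.51 in the last 100 kb of the proximal flank. Scaled to the fragments outside peaks, the flank segments from 32.9, 33.4, 36.4 and 36.9 Mb stood at 0.980, 1.48, 0.425 and 1.20, so the last of them passed 1.

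**Figure D3:**
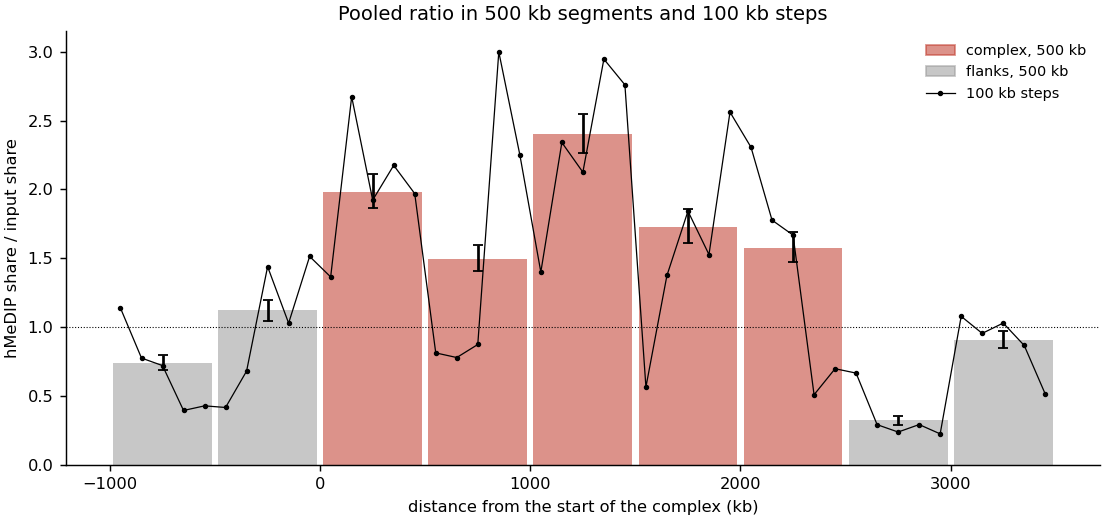
Ratio of hMeDIP to input share (vertical axis) in 500 kb segments (bars, with 95% intervals) and 100 kb steps (points joined by a line) against distance from the start of the complex in kb. All 5 bars of the complex lie between 1.498 and 2.40, above every bar of the flanks, and the line falls below 1 at 3 places within the complex. Shares are of all fragments, and the position of 1 depends on this scaling.

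Steps of 100 kb show where the level turned. The largest step lay at 35400000. The log2 ratio was -0.83 in the 100 kb after it and 1.46 in the 100 kb before it, a difference of -2.29 (-2.66 to -1.92). The next largest lay at 34700000, with 1.58 after it and -0.19 before it, a difference of 1.78 (1.45 to 2.11). The third lay at 36200000, with -0.98 after it and 0.74 before it, a difference of -1.71 (-2.28 to -1.15). Only 73 input fragments lie behind the value after this last step, and 178 behind the value after the first.

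High stretches, meaning runs of at least 5 neighbouring bins at a log2 ratio of 0.5 or more, numbered 12 in the complex. They took up 100 of the 214 tested bins (46.7%), against 13.0% of tested autosomal bins. Low stretches, at -0.5 or less by the same rule, numbered 0 in the complex, against 36.2% of tested autosomal bins in such stretches. The high stretches had a median length of 60 kb in the complex, against 80 kb on autosomes. The longest was 180 kb in the complex and 910 kb on autosomes. Bins enter a stretch or a shorter run by their ratios. The pooled ratios of stretches and runs below, with their intervals, thus follow in part from that choice.

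The stretches fell into 4 blocks with gaps between them. The first block, from 34040001 to 34360000, held 4 stretches of 50, 50, 60 and 70 kb with ratios of 3.29 (2.73 to 3.98), 3.49 (2.82 to 4.36), 2.74 (2.36 to 3.19) and 2.33 (1.98 to 2.76). The second block was 1 stretch of 150 kb, from 34690001 to 34840000, with 1947 hMeDIP and 497 input fragments, which gives 2.85 (2.58 to 3.15) and 30 peaks. Each of its 15 bins had a ratio between 1.54 and 5.32.

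The third block held a stretch of 60 kb from 35030001 to 35090000, at 3.10 (2.64 to 3.64), and the longest stretch of the complex, 180 kb from 35130001 to 35310000. That longest stretch had 2082 hMeDIP and 568 input fragments, which gives 2.67 (2.43 to 2.93) and 29 peaks. High bins went on past its end to 35400000, broken by bins with ratios of 1.12 to 1.395.

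The fourth block, from 35650001 to 36170000, held 5 further stretches with lower ratios at its distal end. They were 60 kb from 35650001 at 2.22 (1.87 to 2.66), 120 kb from 35770001 at 2.42 (2.16 to 2.72), 80 kb from 35900001 at 2.63 (2.28 to 3.04), 60 kb from 35990001 at 1.95 (1.66 to 2.29) and 60 kb from 36110001 at 1.90 (1.59 to 2.27).

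Low stretches of the set length were found in the flanks. The distal flank held 5 of them, the longest of 260 kb from 36540001 to 36800000, with 285 hMeDIP and 802 input fragments at a ratio of 0.259 (0.225 to 0.297). A single bin in it had 113 input fragments, far above the median of 24 in that stretch. The other 4 were 50 kb from 36420001 at 0.324 (0.217 to 0.475), 70 kb from 36810001 at 0.229 (0.168 to 0.310), 50 kb from 36910001 at 0.357 (0.254 to 0.498) and 70 kb from 37330001 at 0.473 (0.377 to 0.592). The proximal flank held 1, of 50 kb from 33240001, at 0.311 (0.231 to 0.416). None of these 6 low stretches held a peak.

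Within the complex, shorter runs of at least 3 neighbouring bins at a log2 ratio of -0.5 or less numbered 7. They took up 23 of the 214 tested bins. The autosomal share by this rule is not given here, but runs of at least 5 such bins alone took up 36.2% of tested autosomal bins. Those of the complex lay from 34120001 to 34150000 at 0.434 (0.306 to 0.610), between high stretches of the first block, from 34450001 at 0.497 (0.371 to 0.664), and from 34540001 at 0.425 (0.309 to 0.581). On the far side of the largest step a pair of runs lay from 35410001 at 0.513 (0.350 to 0.747) and from 35450001 at 0.299 (0.176 to 0.494). The last pair, near the distal end, lay from 36270001 at 0.332 (0.188 to 0.568) and from 36330001 at 0.487 (0.367 to 0.644). Where bins with under 10 input fragments were skipped instead of ending a run, 1 low stretch of 5 tested bins appeared in the complex, from 36210001 to 36310000, at 0.307 (0.188 to 0.489).

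Input was thin in parts of the gaps. In 36 of the 250 bins fewer than 10 input fragments lay, against 21452 of 247240 bins on autosomes. The proximal flank had 16 of 100 such bins and the distal flank 8 of 100. The 36 bins of the complex together held 278 hMeDIP and 156 input fragments, which gives 1.30 (1.06 to 1.59). The longest such run covered 10 bins from 35520001 to 35620000, with 56 hMeDIP and 26 input fragments, which gives 1.57 (0.968 to 2.60). The next covered 5 bins from 36220001 to 36270000, with 20 hMeDIP and 16 input fragments, which gives 0.910 (0.448 to 1.88). Under this scaling the intervals of these 2 runs hold 1, while that of the 36 bins pooled lies above 1. All these bins were chosen for low input, which is the divisor of their ratio. Bins low in input by chance raise the pooled ratio, and the intervals do not allow for this choice. Across the 214 tested bins, log2 ratio and input count were hardly related, with Pearson's r of 0.08 and Spearman's rho of 0.05, over neighbouring bins of the same libraries.

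The highest single bins lay in the first and the third block or just past the third. The top bin, 35290001 to 35300000, held 274 hMeDIP and 29 input fragments, which gives 6.88 (4.68 to 10.5), and 6 peaks that covered 86.5% of it. The second, from 34050001, held 187 hMeDIP and 20 input fragments, which gives 6.81 (4.28 to 11.4). Their intervals overlap almost fully, so their order is not resolved. The bins from 35040001, 35230001 and 35380001 followed at 5.85 (3.94 to 9.003), 5.82 (3.65 to 9.79) and 5.76 (3.97 to 8.60).

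The lowest bins held no peak and few hMeDIP fragments. The bin from 34650001 held 4 hMeDIP and 26 input fragments, which gives 0.112 (0.0284 to 0.323). Those from 35460001 and 34610001 held 5 hMeDIP fragments each, against 19 and 18 input fragments, which gives 0.192 (0.0559 to 0.530) and 0.202 (0.0587 to 0.565). Those from 35470001 and 36210001 held 6 hMeDIP fragments each, against 19 and 18 input fragments, which gives 0.230 (0.0751 to 0.599) and 0.243 (0.0789 to 0.638). All 5 lay in the gaps between the blocks or beyond the last of them. In the flanks the highest bins, at 3.11 (2.06 to 4.84) from 33890001 and 3.22 (2.17 to 4.92) from 37180001, stayed below the 5 highest of the complex. Both of their intervals overlap with those of all 5. The bin from 33890001 borders the complex. The lowest bins of the flanks, from 33360001 and 36590001, held 1 and 2 hMeDIP fragments against 13 and 25 input fragments, which gives 0.0560 (0.00132 to 0.373) and 0.0582 (0.00669 to 0.234).

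Adjacent bins of the complex resembled each other. Pearson's r between their log2 ratios was 0.64 (198 pairs), and it was 0.16 at 100 kb (172 pairs) and -0.12 at 200 kb (168 pairs). On autosomes it was higher at each of these distances, at 0.77, 0.65 and 0.59. These values describe bins of the same libraries that are not independent.

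The authors' peak list placed 198 of its 92654 peaks in the complex, 22 in the proximal and 13 in the distal flank, by midpoint. That is 79.2 peaks per Mb in the complex, 22.0 and 13.0 in the flanks, 46.9 on the remainder of chromosome 17 and 37.3 on autosomes. Peaks covered 10.8% of the complex, against 2.75% and 1.54% of the flanks and 5.06% of autosomes. The track line of the list reads hMeDIP_1-5 and does not say whether the peaks were called on the hMeDIP library described here alone.

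Single peaks of the complex were of ordinary width. The median was 1189 bp with quartiles of 878.5 and 1589 bp, against 1153 bp on autosomes. With a pseudocount of 1 fragment the median fold over input was 4.85 in the complex, with quartiles of 3.64 and 6.83, against 4.37 on autosomes with quartiles of 3.397 and 5.95. In 194 of the 198 peaks the interval excluded 1 on the upper side, as it did in 90317 of 92319 autosomal peaks. Peaks are called for an excess of hMeDIP fragments, so these counts follow from that choice and do not set the complex apart. Medians of 28 hMeDIP and 4 input fragments per peak leave wide intervals on each.

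The peak with the highest score in the complex, 919.42, spanned 34053624 to 34056519 (2896 bp) and ranked 265 in the whole list. It held 138 hMeDIP and 5 input fragments, which gives 20.1 (8.41 to 62.9). Fragments were concentrated in it, with 55 hMeDIP fragments and 1 input fragment in the 500 bp that begin 1500 bp from its start. The score is the authors' and orders peaks within their list only.

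The second score, 803.84, belonged to the widest peak of the complex, 35382649 to 35387253 (4605 bp), with 153 hMeDIP and 13 input fragments at a ratio of 8.57 (4.86 to 16.5). The third, 35032130 to 35034585, had 112 and 9 fragments at a ratio of 9.06 (4.61 to 20.3). The fourth, 35297626 to 35299954, had 105 and 6 fragments at a ratio of 12.7 (5.66 to 35.5). The fifth, 34248704 to 34253063, was also the second widest at 4360 bp, with 177 and 22 fragments at a ratio of 5.86 (3.75 to 9.58). The intervals of all 5 overlap. The remaining wide peaks, of 3606, 3413 and 3205 bp, began at 35822870, 35387966 and 35150914, with ratios of 8.82 (4.48 to 19.8), 9.46 (4.82 to 21.2) and 3.21 (1.88 to 5.80).

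**Figure D4:**
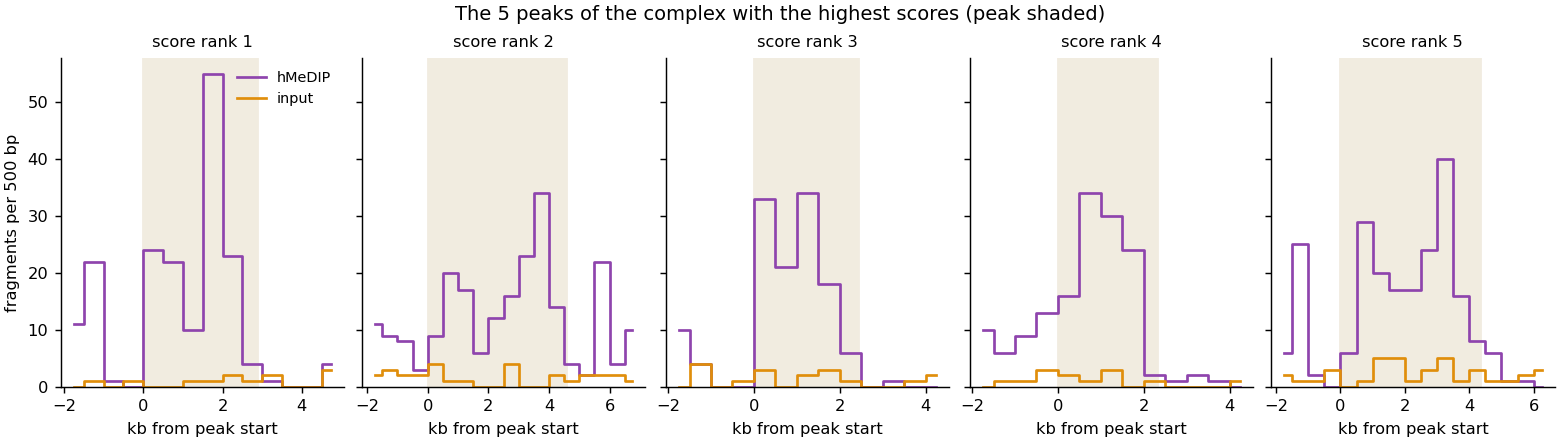
Fragments per 500 bp (vertical axis) of hMeDIP and input against distance in kb from the start of each of the 5 peaks of the complex with the highest scores, with the peak shaded. The hMeDIP line reaches 55 fragments in the peak ranked 1, 34 in those ranked 2 to 4 and 40 in that ranked 5, while the input line stays at 5 fragments or fewer.

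The 12 high stretches held 156 of the 198 peaks (78.8%), and the other 42 lay outside them. High bins held 159 of the 198 peaks (80.3%) and low bins 0, and 138 of the 250 bins held no peak midpoint. Across tested bins the log2 ratio and the percent covered by peaks had a Spearman's rho of 0.87, over neighbouring bins of the same libraries. Peaks, high bins and high stretches all mark an excess of hMeDIP fragments, so these shares and this rho follow largely from their definitions. The matching shares on autosomes are not given here. The longest distance without a peak was 251.8 kb, from 35399496 to 35651311, with 330 hMeDIP and 302 input fragments, which gives 0.795 (0.678 to 0.933). In the complex it was followed by 173.5 kb from 36154942, at 0.715 (0.576 to 0.889), and 161.4 kb from 34506062, at 0.685 (0.600 to 0.783). Another of 149.2 kb from 34823576 stood at 1.09 (0.899 to 1.32), an interval that holds 1. The longest peak-free distances of the flanks stood at 0.323 (0.293 to 0.356) over 563.2 kb from 36416892, 0.526 (0.477 to 0.581) over 445.6 kb from 33084172 and 0.739 (0.655 to 0.833) over 158.5 kb from 32924434.

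Peaks accounted for 43.3% (42.6 to 44.1) of the hMeDIP fragments of the complex and 13.2% (12.4 to 14.03) of its input fragments. On autosomes these shares were 28.7% and 5.51%. Outside all peaks the ratio of the complex was 1.21 (1.17 to 1.25), from 9408 hMeDIP and 5668 input fragments, against 0.792 (0.751 to 0.835) in the proximal flank, 0.565 (0.534 to 0.598) in the distal flank and 0.765 (0.765 to 0.766) on autosomes. In sequence without a called peak, the complex thus stood at 1.53 (1.43 to 1.62) times the proximal flank and 2.14 (2.002 to 2.28) times the distal flank. It stood at 1.58 (1.53 to 1.63) times the autosomes there. These values pool all distances from peaks. A larger part of the input fragments outside peaks lay beyond 50000 bp from a peak on autosomes than in the complex. In the distance classes below that end by 50000 bp, the complex was only 1.05 to 1.24 times the autosomes. Inside peaks the contrast was smaller than in the pooled values. Against autosomes it was 1.15, which lies within the range of those classes. The ratio was 6.08 (5.67 to 6.53) in peaks of the complex, 4.96 (3.98 to 6.24) and 4.46 (3.37 to 5.99) in those of the flanks and 5.27 (5.26 to 5.29) in autosomal peaks. Peaks of the complex were thereby 1.15 (1.07 to 1.24) times autosomal peaks and 1.23 (0.974 to 1.54) times those of the proximal flank, an interval that holds 1, and 1.36 (1.02 to 1.82) times those of the distal flank.

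**Figure D5:**
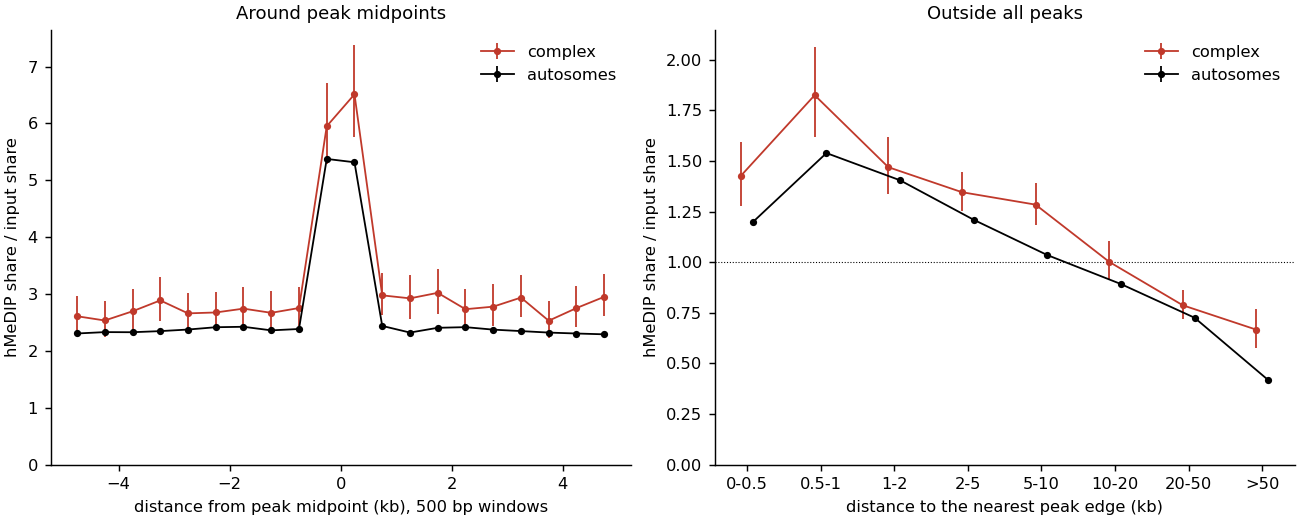
Ratio of hMeDIP to input share (vertical axes, with 95% intervals) around peak midpoints in 500 bp windows (left) and outside all peaks by distance to the nearest peak edge in kb (right), for the complex and all autosomes. The points of the complex lie above those of the autosomes in both panels, at 1.28 against 1.04 for 5 to 10 kb and at 0.667 against 0.418 beyond 50 kb. The class beyond 50 kb has no upper end and reaches much farther from peaks on autosomes.

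In the first 500 bp outside a peak edge the ratio was 1.43 (1.28 to 1.60) in the complex and 1.20 on autosomes, lower in both than in the next 500 bp, and from there on the values fell with distance. In the complex it was 1.82 (1.62 to 2.06) between 500 and 1000 bp from a peak edge, then 1.28 (1.18 to 1.39) between 5000 and 10000 bp, then 1.002 (0.910 to 1.10) between 10000 and 20000 bp, and 0.667 (0.576 to 0.771) farther than 50000 bp away. The autosomal values at these distances were 1.54, 1.04, 0.892 and 0.418. The complex was 1.24 (1.14 to 1.34) times the autosomes between 5000 and 10000 bp and 1.59 (1.38 to 1.84) times farther than 50000 bp away. These were the largest values of any distance class, and the others lay between 1.05 and 1.19. The class beyond 50000 bp has no upper end. The longest peak-free distance was 251816 bp in the complex and 7696441 bp on autosomes, so this class does not compare like distances. Between 1000 and 2000 bp and between 20000 and 50000 bp the intervals held 1, with 1.05 (0.953 to 1.15) and 1.08 (0.991 to 1.19). In the 500 bp on either side of peak midpoints, the ratio in the complex was 5.95 (5.29 to 6.72) before and 6.51 (5.76 to 7.38) after the midpoint, against 5.38 and 5.32 on autosomes.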

How the data were processed

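Genomic DNA of mouse kidney was profiled by hMeDIP-seq with 1 hMeDIP and 1 input library. Per the submitters' processing notes, CASAVA, Bowtie 1.0.0 and build mm9 were used; alignment settings are not given there. The authors deposited, per library, lines of 350 bp with a strand and a count of reads. Each line was taken as 1 fragment, which the labels do not state, placed by its midpoint. Other lengths stood on 18 hMeDIP and 163 input lines. The authors' peak list carries a score that starts at 50, and per the file headers it was made with MACS. Neither the control nor the threshold is stated there.

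Ratios divide the hMeDIP by the input share of all fragments, with 95% exact conditional binomial intervals (scipy 1.17.1). Calls needed 10 input fragments. Named are the 5 highest and 5 lowest bins, every stretch, the highest and lowest bin of each flank, the 5 best-scored and the 5 widest peaks, the 3 largest steps and the longest peak-free distance; other gaps and runs were chosen after their values were seen. The region and lists were chosen with earlier results of these data known. No mm9 genome or annotation was used here. A median autosomal bin held 35 input fragments. Alternatives covered scaling, read weighting, fragment length, input minimum, bin size and offset, thresholds, run rules and peak sets.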

Additional observations from a re-analysis of the deposited data

Results flagged for a closer look

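The number of reads per position was not used in the comparisons above, and it differed between the libraries, which is why it is listed here. In the complex 258 hMeDIP positions held 2 or more reads, or 1.55% (1.37 to 1.75) of them, against 21 input positions, or 0.322% (0.199 to 0.491). On autosomes the shares were 1.33% in hMeDIP and 0.335% in input. In the distal flank they were 0.924% (0.586 to 1.38) and 0.784% (0.492 to 1.18), where the intervals overlap. No position of the complex held more than 3 reads in either library, and weighting by reads left the ratio of the complex at 1.85. The source of the repeated reads was not tested.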

How the results depend on the processing

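No paired analysis was possible because each group had 1 library. Scaling to the fragments outside peaks multiplied every ratio by 1.32, giving 2.44 for the complex, 2.62, 1.98, 3.17, 2.28 and 2.08 for its 5 segments in order, and 8 low bins; ratios between regions are untouched by scaling. The flanks, tried after seeing the data, became 1.23 (proximal, from below to above 1) and 0.853 (distal), and their segments from 32.9, 33.4, 36.4 and 36.9 Mb became 0.980, 1.48, 0.425 and 1.20, the last also passing 1. Centring on the median autosomal bin, added after seeing the data, gave 122 high and 7 low bins. With 20 kb bins 38 high and 10 low of 118 were called, fewer bins being tested. From fragments outside peaks only, the complex stood at 1.21, and at 1.14 with peaks widened by 1 kb. Skipping bins of low input gave 1 low stretch of 5 bins, runs of at least 3 bins gave 7 low stretches of 23 bins, and a log2 threshold of 1 left 8 high stretches of 44 bins. The better-scored part of the peak list put 113 peaks in the complex, with 33.1% of its hMeDIP and 9.05% of its input fragments. Counting any overlap gave 44.8% and 16.2%, and merging peaks within 1 kb gave 14.1% of input. Among the ratios recomputed, only the proximal flank and the segment from 36.9 Mb crossed 1. Ratios of 100 kb steps, peak-free distances and flanks outside peaks were not recomputed. The factor of 1.32 would take some of them from below to above 1 too. Among them are the longest peak-free distance of the complex, at 0.795, and the 100 kb steps from 34.4, 34.5 and 34.6 Mb. The 10 named bins stayed within their intervals in all 30 values under scaling outside peaks, weighting by reads and fragments of 150 bp. Depth limits single bins and peaks, and 36 of 250 bins were too thin in input to call.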

Other observations

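A run of 3 bins from 34000001 to 34030000 held too few input fragments to be called, yet its pooled counts of 58 hMeDIP and 18 input fragments gave a ratio of 2.35 (1.36 to 4.23), with no peak. Low input, by which the run was found, is the divisor of this ratio and can raise it. The run ends 10 kb before the first high stretch of the complex. Of the 78 high bins, 3 held no peak midpoint, from 34100001 at 2.002, from 34180001 at 2.91 and from 35160001 at 2.40. These were picked after their values were seen.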
